A study of Arabidopsis thaliana with 36 samples.

Results

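Transcript amounts in leaves of Arabidopsis thaliana, ecotype Columbia-0 (Col-0), were compared between 60 min of high light and the time before it, 0 min. The comparison takes the 3 libraries that their titles place at each of those times, 6 of the 36 libraries of the study, and it covers every gene with at least 1 reading above 7 RPKM in any library, which is 13817 of the 37336 genes measured. By the study's methods, RPKM is a read count scaled to the length of the transcript in kilobases and to the mapped reads of the library. The study followed Col-0 and a further ecotype, Wassilewskija (WS), from low to high light over 6 times with 3 libraries at each.

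All plants compared were wild type and grew hydroponically in a 12 h photoperiod in light of 120 μmol photons m-2 s-1, given as the photon flux density (PFD). The libraries were made from RNA of fully expanded leaves. At 0 min the leaves came from plants in that light, and at 60 min from plants changed to 500 μmol photons m-2 s-1 of white light in a gas exchange chamber for whole small plants. A leaf was cut from each of 3 plants at each time, so the plants sampled at 60 min had already lost leaves at the earlier times. None of the 36 libraries is labelled as 60 min without the light change, so light, time of day, earlier leaf removal and time in the chamber cannot be told apart. Where values from replicates are given, n was 3 libraries per group. The p-values measure the spread between libraries of a group, pooled over the 12 groups and 36 libraries of a single fit. The labels do not say whether a replicate number stands for the same plant at each time, so values fitted with the number as a block are given where they change a call.

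Jasmonate, the hormone whose genes headed the rises, is made from membrane fatty acids. Lipoxygenases (LOX), allene oxide synthase (AOS) and allene oxide cyclases (AOC) act in the chloroplast, oxophytodienoate reductase 3 (OPR3) and beta-oxidation follow in the peroxisome, and JAR1 joins the product to isoleucine. The conjugate makes its receptor destroy the JAZ repressors, and the genes those proteins held down are then transcribed, among them the JAZ genes themselves. The hormone is best known from wounding and insect attack, and it also takes part in defence, growth arrest and pigment formation.

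The 3 libraries at 0 min held about 22400000 to 30400000 reads in genes, and those at 60 min about 29600000 to 40000000. On the log2(RPKM + 1) scale, the correlation across genes within the 0 min group was 0.949 to 0.978, and within the 60 min group 0.892 to 0.939. Replicate 1 at 60 min stood apart, with correlations of 0.902 to 0.911 to the 0 min libraries, where replicates 2 and 3 had 0.753 to 0.818. Its rises were smaller. Among the genes that rose, the median shift from the 0 min mean was 0.91 in that library, 2.07 in replicate 2 and 1.84 in replicate 3. By root mean square distance on the log2(RPKM + 1) scale, replicate 1 lay nearer to the Col-0 30 min mean (0.6) than to the rest of its own group (0.777). For replicates 2 and 3 these distances were almost equal, 0.627 against 0.633 and 0.625 against 0.627. The mean of the own group held only the 2 other libraries. Of the leaf cell markers, the 4 mesophyll genes summed to 32679 to 49414 RPKM at 0 min and 23229 to 35627 RPKM at 60 min and none of them passed the test, and the 3 root markers summed to at most 0.1 RPKM in any library. In whole leaves, fewer cells of a type and less RNA per cell cannot be told apart.

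At 60 min 1391 genes were higher than at 0 min (10.1% of those tested) and 890 were lower (6.44%), by limma on log2(RPKM + 1) with Benjamini-Hochberg adjusted p under 0.05. The rises were larger than the falls. The median log2 difference was 1.66 among genes that rose and -1.23 among genes that fell, against 0.04 over all genes tested, and 717 of the genes that rose had mean RPKM at least 4-fold higher, while 227 of those that fell were at least 4-fold lower. At 16-fold the counts were 274 and 18. For 1312 of the genes that rose and 834 of those that fell, the 3 libraries at 60 min did not overlap the 3 at 0 min, where 19.96% of all genes lay entirely above and 13.8% entirely below. The split, 61% higher above, depended on the scaling and on the model. In limma, median of ratios scaling gave 1256 genes higher and 1047 lower, and TPM scaling 1113 and 994. Voom on read numbers recovered from the RPKM values, an alternative chosen after seeing the data, gave 801 higher and 1022 lower. It also scaled each library by its recovered reads, so model and scaling changed together.

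The libraries in the fit also moved these counts. Fitted alone, with 4 residual degrees of freedom in place of 24, the 6 libraries gave 490 genes higher and 391 lower, and the 18 Col-0 libraries gave 872 and 635. With the replicate number as a block there were 1671 and 1111. Without replicate 1 at 60 min, 1846 genes were higher and 1020 lower, and without replicate 2 at 60 min 573 were higher and 459 lower. Leaving out replicate 3 at 60 min gave 910 and 597, and leaving out replicate 1 at 0 min gave 899 and 573. The labels number the replicates alike at every time. With all libraries numbered 2 left out, 320 genes were higher and 282 lower, and with all numbered 3 left out 554 and 405. Of the genes called in the full fit, 484 rises and 341 falls were called in each of the 6 fits that left out 1 of the libraries compared. No gene passed the test of the step from 30 to 60 min in limma, where 815 had an unadjusted p under 0.05, and voom also called 0, while the fit with the replicate number as a block called 1.

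The 10 largest rises and 10 largest falls were picked among called genes whose 3 libraries at 60 min did not overlap the 3 at 0 min. Their lack of overlap is part of that choice and adds no evidence. Of the 10 largest rises, 3 were annotated as jasmonate repressors. JAZ7 (AT2G34600), a jasmonate repressor, was at 0, 0.11 and 0.05 RPKM at 0 min and 27.3, 273 and 478 RPKM at 60 min (log2 difference 7.2 ± 1.25 (SE), adjusted p = 0.00031). Its transcript was at or near 0 before the light rise and was present in every library after it, with replicate 1 lowest. JAZ1 (AT1G19180), a repressor known to bind the jasmonate receptor, was at 1.35, 2.53 and 4.02 RPKM at 0 min and 189, 565 and 1058 RPKM at 60 min, which is 229-fold higher by means (log2 difference 7.13 ± 0.87 (SE), adjusted p = 1.5e-05). AT3G22275, annotated as a further JAZ-type protein, was at 0.39, 0.16 and 1.38 RPKM at 0 min and 30.3, 309 and 407 RPKM at 60 min (log2 difference 6.66 ± 1.21 (SE), adjusted p = 0.00046). In each of these genes replicates 2 and 3 at 60 min were several times above replicate 1.

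The annotations of the other 7 of the 10 were mixed, which does not set these genes apart from the jasmonate response. VSP2 (AT5G24770), a vegetative storage protein with phosphatase activity that accumulates under jasmonate, was at 1.47, 1.17 and 0.76 RPKM at 0 min and 92, 201 and 673 RPKM at 60 min, 284-fold higher (log2 difference 6.78 ± 0.96 (SE), adjusted p = 4.3e-05). TAT3 (AT2G24850), annotated as a tyrosine aminotransferase, was at 0.88, 0.44 and 0.5 RPKM at 0 min and 24.4, 654 and 515 RPKM at 60 min (log2 difference 7.0 ± 1.13 (SE), adjusted p = 0.00016). NAC019 (AT1G52890), a transcription factor of the NAC family, was at 0.48, 0.23 and 0.41 RPKM at 0 min and 66.6, 96 and 568 RPKM at 60 min (log2 difference 6.82 ± 1.15 (SE), adjusted p = 0.00024). The 60 min libraries of these genes spanned a wide range. MAPKKK21 (AT4G36950), a protein kinase of the MAP kinase kinase kinase class, was at 0.05, 0.03 and 0.42 RPKM at 0 min and 39.1, 195 and 330.0 RPKM at 60 min (log2 difference 6.9 ± 1.14 (SE), adjusted p = 0.00021). NUDT8 (AT5G47240), a nudix hydrolase, was at 0.72, 6.95 and 0.36 RPKM at 0 min and 103, 392 and 441 RPKM at 60 min (log2 difference 6.63 ± 0.91 (SE), adjusted p = 3e-05). AT5G05600, a 2-oxoglutarate-dependent oxygenase, was at 0.77, 0.35 and 1.63 RPKM at 0 min and 60.2, 262 and 449.8 RPKM at 60 min, and AT3G51450, annotated as a calcium-dependent phosphotriesterase, at 3.18, 3.1 and 3.25 RPKM at 0 min and 203, 939 and 1025 RPKM at 60 min. Their log2 differences were 6.71 ± 1.06 and 7.12 ± 0.90. The calls on all 10 held with any library or replicate number left out, and voom did not call JAZ7, MAPKKK21, NAC019 and AT3G22275.

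**Figure D1:**
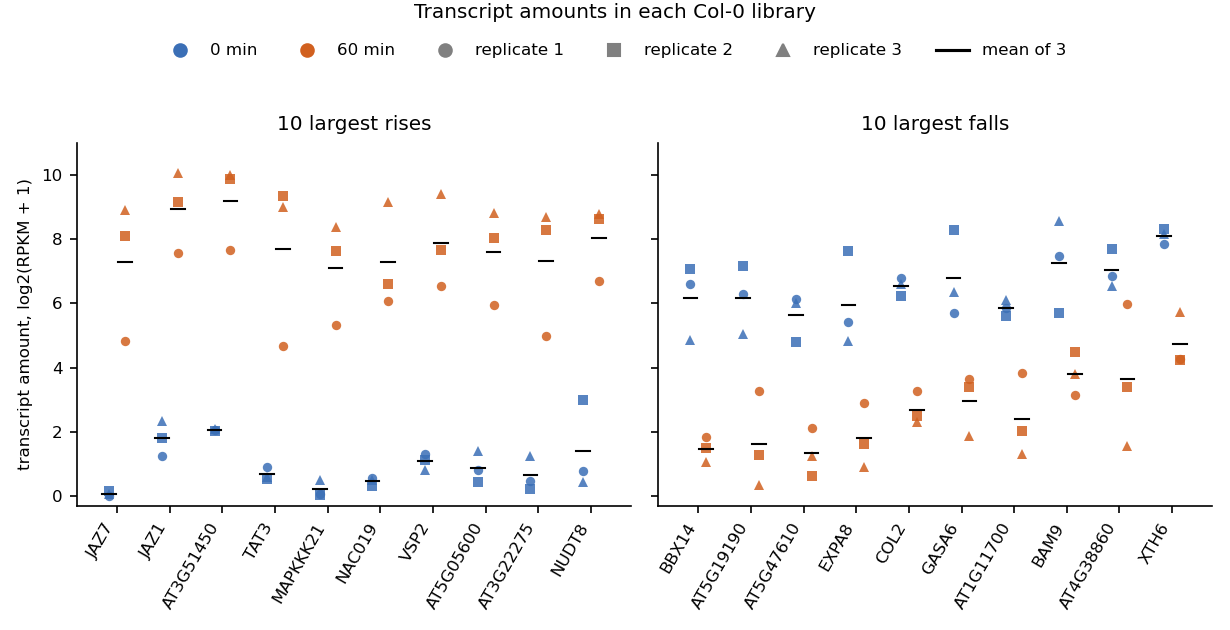
Transcript amounts in each of the 6 libraries for the 10 genes that rose most and the 10 that fell most, as log2(RPKM + 1), with points for the libraries at 0 and 60 min and lines for their means. Both sets were picked among called genes whose groups did not overlap. JAZ7 went from at most 0.11 RPKM at 0 min to between 27.3 and 478 RPKM, and BBX14 from at least 27.8 RPKM to at most 2.59 RPKM.

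The G-box CACGTG, a site that basic helix-loop-helix and bZIP factors are known to bind, occurred in the 250 bases before the start of 6 of the 10 genes with the largest rises and of 1 of the 10 with the largest falls. It was in 14.6% of the 1391 promoters of genes that rose, 6.74% of the 890 of genes that fell and 7.94% of the 13738 of all tested genes that had a promoter sequence. The sequence reads the same on both strands, so a match counts for either. To show where it lies, the promoters of 4 of those 6 genes are printed here from the RefSeq annotation of TAIR10.1, each read 5′ to 3′ on the strand of the gene and ending at the base before its start, with the G-box in capitals.
JAZ7, chr2:14572780-14573029, plus strand: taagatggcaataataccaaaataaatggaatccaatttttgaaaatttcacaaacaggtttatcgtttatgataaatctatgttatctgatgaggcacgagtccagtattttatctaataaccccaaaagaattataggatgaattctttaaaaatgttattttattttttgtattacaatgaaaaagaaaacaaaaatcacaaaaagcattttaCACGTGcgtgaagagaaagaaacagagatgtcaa
NAC019, chr1:19698483-19698732, minus strand: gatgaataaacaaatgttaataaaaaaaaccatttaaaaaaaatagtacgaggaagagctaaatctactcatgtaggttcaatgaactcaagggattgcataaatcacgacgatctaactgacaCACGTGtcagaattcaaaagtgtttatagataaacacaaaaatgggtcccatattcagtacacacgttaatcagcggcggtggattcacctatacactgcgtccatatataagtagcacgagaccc
NUDT8, chr5:19183273-19183522, plus strand: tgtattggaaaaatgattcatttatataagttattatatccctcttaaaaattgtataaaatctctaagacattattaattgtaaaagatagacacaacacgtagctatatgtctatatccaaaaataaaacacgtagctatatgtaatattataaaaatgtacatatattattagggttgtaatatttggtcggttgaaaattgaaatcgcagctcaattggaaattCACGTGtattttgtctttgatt
AT3G51450, chr3:19090697-19090946, plus strand: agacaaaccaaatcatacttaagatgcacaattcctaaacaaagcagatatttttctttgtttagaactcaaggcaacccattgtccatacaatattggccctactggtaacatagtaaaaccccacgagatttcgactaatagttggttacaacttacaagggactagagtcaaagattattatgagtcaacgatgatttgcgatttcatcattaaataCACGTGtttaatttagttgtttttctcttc
The match began 34 bases before the start in JAZ7, 126 in NAC019, 22 in NUDT8 and 30 in AT3G51450. A match is a description of these letters and not a measured site.

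Of the 14 genes listed for jasmonate synthesis, all tested, 12 rose and none fell, with a median log2 difference of 4.23, where 10.1% of all genes rose. The median shift from the 0 min mean was 3.03 in replicate 1, 4.40 in replicate 2 and 4.87 in replicate 3. LOX2 (AT3G45140), the main chloroplast lipoxygenase of the leaf, was at 156, 115 and 132 RPKM at 0 min and 982, 1718 and 2251 RPKM at 60 min, 12.3-fold higher (log2 difference 3.54 ± 0.58 (SE), adjusted p = 0.00018). AOS (AT5G42650), which acts next, was at 125, 166 and 125 RPKM at 0 min and 725, 1632 and 2661 RPKM at 60 min, 12.1-fold higher (log2 difference 3.41 ± 0.65 (SE), adjusted p = 0.00073). Both genes were well expressed before the light rise, and their libraries did not overlap.

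Among the cyclases, AOC3 (AT3G25780) was at 0.56, 0.13 and 1.1 RPKM at 0 min and 25.5, 230.1 and 400.2 RPKM at 60 min (log2 difference 6.45 ± 0.93 (SE), adjusted p = 5.1e-05), and AOC4 (AT1G13280) at 11.7, 14.3 and 10.4 RPKM at 0 min and 28.2, 21.8 and 49.1 RPKM at 60 min (log2 difference 1.31 ± 0.30 (SE), adjusted p = 0.0034). The near 0 starting level of AOC3 gives no usable fold, and the AOC4 call was lost without replicate 3 at every time. AOC1 and AOC2, neighbours of nearly identical sequence between which short reads may be divided wrongly, had log2 differences of 5.53 ± 1.00 and 4.97 ± 0.76. OPR3 (AT2G06050), the peroxisomal reductase, was at 9.08, 7.06 and 11.8 RPKM at 0 min and 272, 1452 and 1779.8 RPKM at 60 min, 126-fold higher (log2 difference 6.46 ± 0.84 (SE), adjusted p = 1.7e-05), which was the largest rise of the list. OPCL1 (AT1G20510), the ligase that readies the product of OPR3 for beta-oxidation, was at 8.3, 9.55 and 9.76 RPKM at 0 min and 114, 409.5 and 619 RPKM at 60 min, 41.4-fold higher. No library at 60 min was below 114 RPKM for OPCL1.

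Members of this list named here for the order of the pathway, chosen after their values were seen, included further lipoxygenases. LOX3 (AT1G17420) was at 3.92, 3.92 and 3.72 RPKM at 0 min and 83.4, 538 and 904 RPKM at 60 min, 132-fold higher, and LOX4 (AT1G72520) at 3.21, 1.73 and 3.32 RPKM at 0 min and 32.5, 219 and 391 RPKM at 60 min, 77.8-fold higher. Their adjusted p-values were 0.00013 and 0.00047 by limma. ACX1 (AT4G16760), an acyl-CoA oxidase of beta-oxidation, was at 29.4, 25 and 29.9 RPKM at 0 min and 73.9, 295 and 421 RPKM at 60 min (log2 difference 2.86 ± 0.67 (SE), adjusted p = 0.0042), and JAR1 (AT2G46370) at 19.7, 13.2 and 28.9 RPKM at 0 min and 60.2, 212 and 329 RPKM at 60 min (log2 difference 2.98 ± 0.80 (SE), adjusted p = 0.011). The JAR1 call was lost in 5 of the 9 fits that left out a library or a replicate number and that of ACX1 in 2. The members that did not pass were LOX6 (AT1G67560), at 6.69, 7.81 and 8.22 RPKM at 0 min and 6.96, 11 and 12.5 RPKM at 60 min, and ACX5 (AT2G35690), at 4.95, 6.15 and 5.37 RPKM at 0 min and 5.23, 4.88 and 4.1 RPKM at 60 min, with libraries that overlapped. Their adjusted p-values were 0.43 and 0.60.

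Of the 18 genes listed as JAZ repressors and enzymes that inactivate jasmonate, 16 were tested, 14 rose and none fell, with a median log2 difference of 5.12, against 10.1% of all genes. The median shift was 3.04 in replicate 1, 5.83 in replicate 2 and 6.91 in replicate 3. Besides JAZ1 and JAZ7, the named members were JAZ9 (AT1G70700), at 108, 69 and 169 RPKM at 0 min and 901, 2029 and 2392 RPKM at 60 min, and CYP94C1 (AT2G27690), a cytochrome P450 that oxidises the active conjugate, at 0.13, 1.04 and 0.2 RPKM at 0 min and 22.1, 142 and 207 RPKM at 60 min. JAZ9 was 15.4-fold higher (adjusted p = 0.00017), and CYP94C1 had a log2 difference of 5.97 ± 0.95 (SE), adjusted p = 0.00014. JAZ9 was the most abundant repressor per length in every one of the 6 libraries. Others, chosen after their values were seen, were JAZ2, 41.7-fold higher from 14, 11.2 and 10.9 RPKM, JAZ6, 16.5-fold higher from 35.9, 50.5 and 28.5 RPKM, and JAZ12, 4.85-fold higher from 34.5, 44.5 and 34.2 RPKM. JAZ10 (AT5G13220), known for slowing the response once begun, was at 0.34, 0.22 and 0.27 RPKM at 0 min and 10.4, 142 and 314 RPKM at 60 min (log2 difference 5.97 ± 1.36 (SE), adjusted p = 0.0033). The calls on JAZ8, JAZ10 and JAZ12 were lost without replicate 2 and without replicate 3 at every time. JAZ11 (AT3G43440) did not pass, at 5.34, 5.58 and 4.26 RPKM at 0 min and 5.19, 4.75 and 3.75 RPKM at 60 min with overlapping libraries (adjusted p = 0.84). The sulphotransferase ST2A, which acts on hydroxylated jasmonate, was at 0, 0.72 and 0.04 RPKM at 0 min and 0.46, 7.79 and 9.38 RPKM at 60 min (adjusted p = 0.18).

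**Figure D2:**
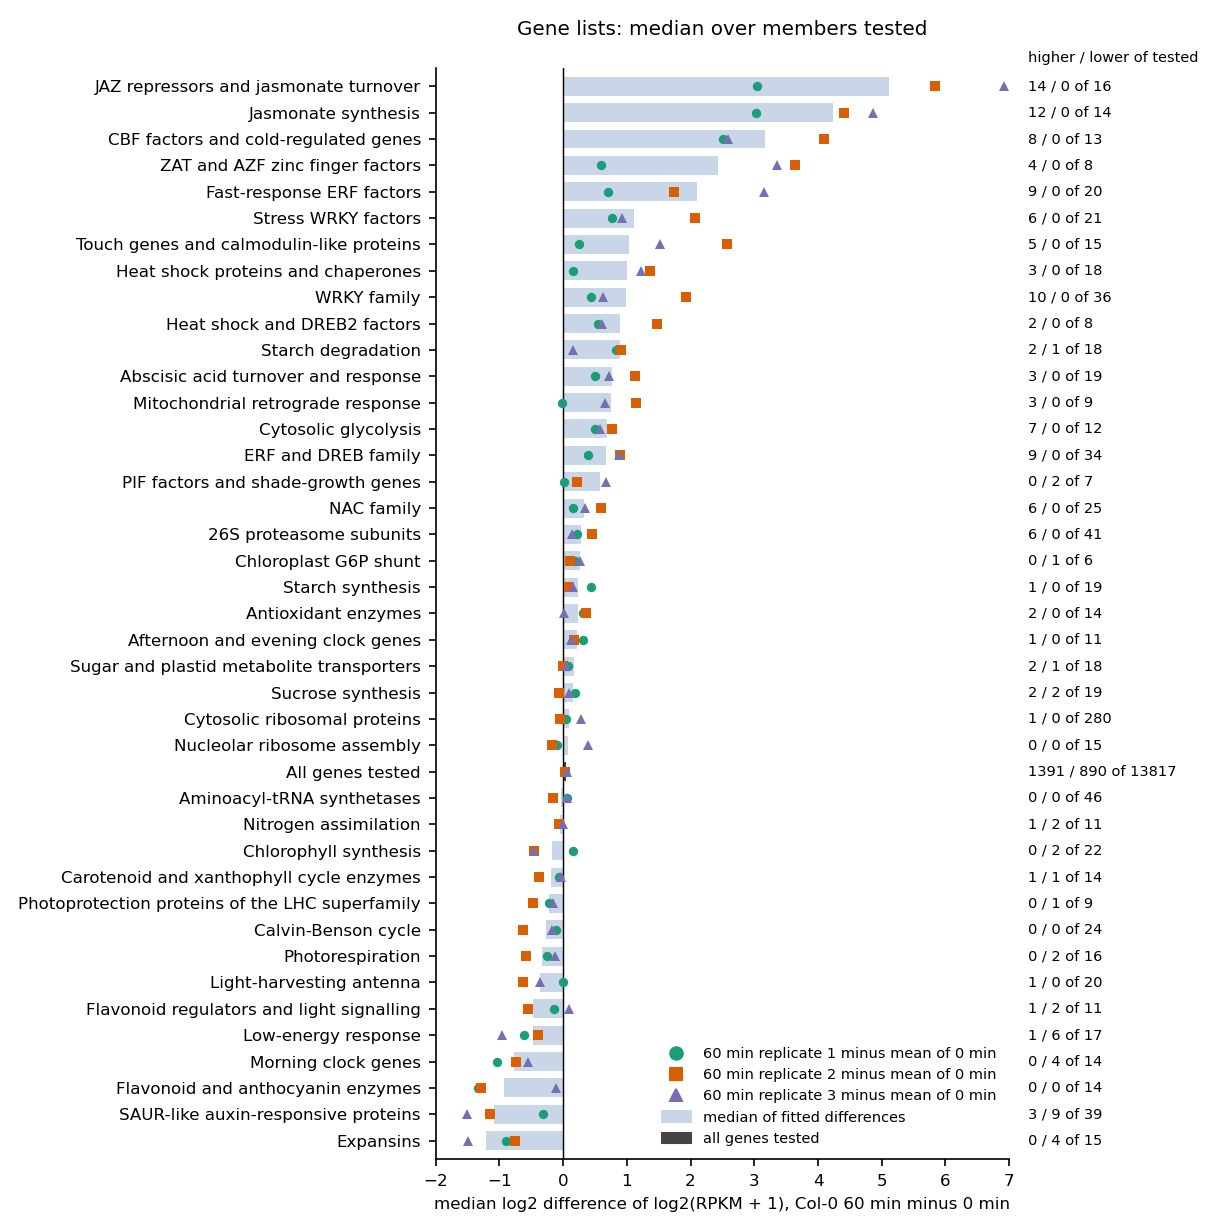
Median log2 difference of the tested members of each gene list between 60 and 0 min in Col-0, on the log2(RPKM + 1) scale, as bars for the median, with points for the median shift of each 60 min library from the 0 min mean and, at the right, the number of members higher and lower of those tested. The medians of jasmonate synthesis (4.23) and of the JAZ repressors with jasmonate turnover (5.12) lie above that of all genes tested (0.04), and those of the Calvin-Benson cycle (-0.27) and expansins (-1.21) below it.

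Cold-regulated genes formed the next list. The CBF factors switch on a set of protective proteins in the cold through the DRE, a site with the core CCGAC. Of the 13 genes of this list, all tested, 8 rose and none fell, with a median log2 difference of 3.17, where 10.1% of all genes rose. COR15A (AT2G42540), a chloroplast protein that protects membranes during freezing, was at 74.2, 46.7 and 45.9 RPKM at 0 min and 945, 956 and 802 RPKM at 60 min, 16.2-fold higher (log2 difference 4.03 ± 0.57 (SE), adjusted p = 4.1e-05). Its 3 libraries at 60 min were close together, replicate 1 included. RD29A (AT5G52310), a hydrophilic stress protein, was at 19.9, 11.6 and 11 RPKM at 0 min and 361, 740.4 and 275 RPKM at 60 min, 32.4-fold higher (log2 difference 4.84 ± 0.64 (SE), adjusted p = 2e-05). COR15B (AT2G42530) was at 8.37, 7.08 and 3.47 RPKM at 0 min and 189.9, 178 and 44.8 RPKM at 60 min and the dehydrin ERD10 (AT1G20450) at 105, 64.4 and 100.1 RPKM at 0 min and 537, 1655 and 1581 RPKM at 60 min, which is 21.8-fold and 14-fold higher. For all 4 genes the groups did not overlap, and the calls held in all 9 fits that left out a library or a replicate number.

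The factors CBF1, CBF2 and CBF3, named after their values were seen, did not differ past the test between 0 and 60 min. CBF2 (AT4G25470) was at 0.18, 0.72 and 0.4 RPKM at 0 min and 0.36, 1.53 and 0.13 RPKM at 60 min (adjusted p = 0.91), CBF1 was at most 0.15 RPKM in any of the 6 libraries, and CBF3 at most 1.93 RPKM. At 15 min their means were 8.86, 27.7 and 5.44 RPKM. The 3 genes lie side by side and are similar in sequence, so reads may be divided between them with error. GOLS3, a galactinol synthase, COR47 and the near-identical pair KIN1 and KIN2 made up the other rises of the list, from 6.12-fold to 53-fold.

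The core CCGAC, read on either strand, was in 17.5% of the promoters of genes that rose, 10.2% of those that fell and 13.5% of all. The promoters of RD29A and COR15A are shown because they hold it more than once, with CCGAC in capitals or, for a match on the other strand, GTCGG. Both come from RefSeq's TAIR10.1 annotation and end at the base before the start of the gene.
RD29A, chr5:21240467-21240716, plus strand: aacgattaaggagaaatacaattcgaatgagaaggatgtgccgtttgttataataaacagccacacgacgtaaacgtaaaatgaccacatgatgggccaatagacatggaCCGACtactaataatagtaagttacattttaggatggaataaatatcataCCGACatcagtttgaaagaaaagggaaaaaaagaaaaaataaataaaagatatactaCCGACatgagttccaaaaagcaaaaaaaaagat
COR15A, chr2:17712331-17712580, minus strand: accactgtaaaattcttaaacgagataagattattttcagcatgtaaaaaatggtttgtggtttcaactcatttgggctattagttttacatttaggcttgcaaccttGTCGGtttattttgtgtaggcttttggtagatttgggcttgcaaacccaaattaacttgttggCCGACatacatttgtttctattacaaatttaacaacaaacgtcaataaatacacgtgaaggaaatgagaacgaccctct
RD29A had 3 matches, beginning 33, 90 and 140 bases before the start, and COR15A had 2, at 79 and 142.

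Of 20 tested ERF factors, which bind ethylene-responsive and related sites, 9 rose and none fell, with a median log2 difference of 2.1, where 10.1% of all genes rose. ERF1A (AT4G17500) was at 1, 2.01 and 1.14 RPKM at 0 min and 95.8, 114 and 342 RPKM at 60 min and ERF2 (AT5G47220) at 0.77, 3.91 and 0.64 RPKM at 0 min and 139.9, 139 and 319.6 RPKM at 60 min, 133-fold and 112-fold higher (adjusted p = 0.00044 and 0.001). ORA47 (AT1G74930), a factor known to switch on jasmonate synthesis genes, was at 0.36, 0.4 and 0.43 RPKM at 0 min and 10, 34.5 and 33.5 RPKM at 60 min (log2 difference 4.09 ± 0.86 (SE), adjusted p = 0.0018), and ERF11 (AT1G28370) at 0.54, 0.07 and 0.59 RPKM at 0 min and 8.37, 28.4 and 36.5 RPKM at 60 min (log2 difference 3.98 ± 0.87 (SE), adjusted p = 0.0024). The groups of these 4 factors did not overlap. RAP2.6 (AT1G43160) was at 0.07, 0 and 0.11 RPKM at 0 min and 8.54, 155 and 465 RPKM at 60 min (log2 difference 6.38 ± 1.49 (SE), adjusted p = 0.004), a call lost without replicate 2 or 3 at every time. RRTF1 (AT4G34410), the redox responsive factor, was listed at 0 in all 3 libraries at 0 min and was at 0.72, 22.8 and 35.5 RPKM at 60 min (log2 difference 3.51 ± 1.01 (SE), adjusted p = 0.017). Its replicate 1 was close to 0, and the call was lost in 4 of the 9 fits with a library or a replicate number left out and in voom.

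Of 21 tested stress WRKY genes, whose factors bind the W-box of defence genes, 6 rose and none fell (median 1.11, 10.1% of all genes higher). WRKY18 (AT4G31800) was at 2.32, 3.91 and 4.6 RPKM at 0 min and 14.7, 217 and 217 RPKM at 60 min and its close relative WRKY40 (AT1G80840) at 0.65, 0.27 and 0.42 RPKM at 0 min and 13, 67.8 and 168 RPKM at 60 min, with log2 differences of 4.33 ± 0.83 and 5.25 ± 1.13. Replicate 1 was the lowest of the 60 min libraries for both, and the WRKY40 call was lost without replicate 3 at every time and in voom. WRKY11 (AT4G31550) was at 5.91, 6.43 and 6.62 RPKM at 0 min and 21.6, 34.7 and 18.1 RPKM at 60 min, 3.92-fold higher, and WRKY25 (AT2G30250) at 3.08, 4.72 and 4.22 RPKM at 0 min and 11.4, 40.7 and 24.4 RPKM at 60 min, 6.37-fold higher. WRKY33, chosen after its values were seen, had an adjusted p of 0.15. Of 8 tested genes of ZAT and AZF zinc finger factors 4 rose and none fell (median 2.42, 10.1% of all genes higher), and 1 fell with the replicate number as a block. AT3G53600, one of them, was listed at 0 in each 0 min library and was at 1.53, 65.9 and 49.7 RPKM at 60 min. ZAT10 (AT1G27730) was at 1.85, 0.34 and 4.22 RPKM at 0 min and 12.8, 81.5 and 63.1 RPKM at 60 min and ZAT12 (AT5G59820) at 0.99, 0.45 and 2.07 RPKM at 0 min and 2.68, 42.8 and 33.7 RPKM at 60 min, and ZAT6 (AT5G04340) had a log2 difference of 3.3 ± 0.94 (SE), adjusted p = 0.016. In all of them replicate 1 at 60 min was closest to the 0 min level.

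Of the whole NAC family, 6 of 25 tested members rose where 10.1% of all genes did, and NAC019 rose most. The members named by smallest adjusted p, not by size of rise, included NAC090, NAC102 and NAC069. Their log2 differences were 1.96, 1.74 and 0.99. Of 34 tested genes annotated as ERF or DREB, 9 rose, and of 36 annotated as WRKY 10, against the same 10.1%, with none lower in any of the 3 families. PAP1 (AT1G56650), the MYB factor that turns on anthocyanin synthesis, was at 2.24, 1.52 and 0.47 RPKM at 0 min and 76.8, 105 and 196 RPKM at 60 min, 89.4-fold higher (log2 difference 5.68 ± 0.89 (SE), adjusted p = 0.00013). It was the 1 gene that rose of 11 tested flavonoid regulators and light signalling genes, of which COL2 and TTG1 fell (median -0.46). None of the 14 tested flavonoid and anthocyanin enzymes passed the test (median -0.93). Chalcone synthase CHS, the first enzyme of that pathway and named after its values were seen, was at 519, 201 and 288 RPKM at 0 min and 72, 37.5 and 281 RPKM at 60 min with overlapping groups.

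Genes of calcium sensing, which touch and wounding are known to raise, rose in 5 of 15 tested members (median 1.04, 10.1% of all genes higher). CML38 (AT1G76650) was at 0.14, 0.13 and 0 RPKM at 0 min and 3.45, 75.4 and 15.7 RPKM at 60 min and CAM2 (AT2G41110) at 20.3, 12.5 and 24 RPKM at 0 min and 40.4, 85.2 and 105 RPKM at 60 min. CML12, also called TCH3, was 4.73-fold higher, and CML39 had a log2 difference of 2.71 ± 0.81 (SE), adjusted p = 0.021. Replicate 2 held the highest level of CML38 and replicate 3 that of CML39. Of 19 tested genes of abscisic acid turnover and response 3 rose (median 0.78), a share near the 10.1% of all genes, and 6 rose with the replicate number as a block. ABI1 (AT4G26080), a phosphatase that holds abscisic acid signalling down, was at 24.4, 22 and 38.3 RPKM at 0 min and 104, 168 and 359.9 RPKM at 60 min, 7.46-fold higher, and RD20 (AT2G33380), a caleosin, at 167, 41.3 and 135 RPKM at 0 min and 572, 1491 and 2045 RPKM at 60 min, 12-fold higher. HAI1, a phosphatase of the same clade as ABI1, had a log2 difference of 4.0 ± 1.13 (SE), adjusted p = 0.015.

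Of 18 tested heat shock proteins and chaperones 3 rose, near the 10.1% of all genes, BAG6, ROF2 and HSP17.6II, with log2 differences of 1.7 ± 0.36, 2.32 ± 0.68 and 2.48 ± 0.71. The median log2 difference of the list was 1.00, its median shift was 0.16 in replicate 1, 1.36 in replicate 2 and 1.22 in replicate 3, and 7 members were called without replicate 1 at 60 min. HSFA8 (AT1G67970) and HSFA1B (AT5G16820) were the 2 that rose of 8 tested heat shock and DREB2 factors, where 10.1% of all genes rose, 6.63-fold and 2.15-fold higher. Of 14 tested antioxidant enzymes 2 rose, again near 10.1%. DHAR1 (AT1G19570), which regenerates ascorbate, was at 110.4, 83.7 and 94 RPKM at 0 min and 618, 1285 and 2251 RPKM at 60 min, 14.4-fold higher (log2 difference 3.65 ± 0.58 (SE), adjusted p = 0.00014), with all 60 min libraries above all 0 min libraries. APX1 (AT1G07890), the cytosolic ascorbate peroxidase, was at 169, 224 and 152 RPKM at 0 min and 358, 649.6 and 228 RPKM at 60 min (log2 difference 1.06 ± 0.33 (SE), adjusted p = 0.026). The APX1 call was lost in 5 of 9 fits with a library or a replicate number left out. Of 9 tested genes of the mitochondrial stress response 3 rose where 10.1% of all genes did, the alternative oxidase AOX1A (AT3G22370) from 20.4, 16.2 and 17.9 to 45.9, 57.5 and 31.4 RPKM, the dehydrogenase NDB2 6.93-fold and OM66 10.4-fold.

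The largest gains in RPKM were in genes that were already abundant. GSTU5 (AT2G29450), a glutathione transferase, was at 416, 189 and 491 RPKM at 0 min and 1055, 4024 and 5500.0 RPKM at 60 min, 9.66-fold higher (log2 difference 3.08 ± 0.75 (SE), adjusted p = 0.0055). GGP1 (AT4G30530), a peptidase that acts on glutathione conjugates in glucosinolate synthesis, was at 139, 159 and 235 RPKM at 0 min and 528, 1729 and 3039.7 RPKM at 60 min, 9.94-fold higher (log2 difference 3.01 ± 0.68 (SE), adjusted p = 0.0032). AT5G54940, annotated as a translation initiation factor of the SUI1 family, was at 226, 343 and 405 RPKM at 0 min and 724, 2564 and 2913 RPKM at 60 min, 6.36-fold higher (log2 difference 2.47 ± 0.66 (SE), adjusted p = 0.011). JAZ9 and AOS were also among the 5 largest gains. Replicate 1 gained least in all 5, and the AT5G54940 call was lost in 5 of 9 fits with a library or a replicate number left out.

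Among the falls, BBX14 (AT1G68520), a B-box zinc finger protein, fell most. It was at 95.2, 133 and 27.8 RPKM at 0 min and 2.59, 1.82 and 1.1 RPKM at 60 min, 97.8% lower by means (log2 difference -4.7 ± 0.54 (SE), adjusted p = 1.4e-05). The groups did not overlap by the rule of choice, and the gap between them was wide, replicate 1 included. AT5G19190, of unknown function, was at 77, 143 and 31.9 RPKM at 0 min and 8.54, 1.44 and 0.26 RPKM at 60 min (log2 difference -4.54 ± 0.61 (SE), adjusted p = 2.5e-05), and AT5G47610, a RING-type protein, at 69.8, 26.5 and 63.3 RPKM at 0 min and 3.37, 0.54 and 1.37 RPKM at 60 min (log2 difference -4.31 ± 0.55 (SE), adjusted p = 1.6e-05). COL2 (AT3G02380), a CONSTANS-like factor, was at 109, 73.4 and 96 RPKM at 0 min and 8.64, 4.64 and 3.97 RPKM at 60 min, 93.8% lower (log2 difference -3.84 ± 0.61 (SE), adjusted p = 0.00014). AT1G11700, annotated as a senescence regulator of unknown function, was at 56.3, 47.9 and 68.1 RPKM at 0 min and 13.3, 3.06 and 1.49 RPKM at 60 min (log2 difference -3.46 ± 0.62 (SE), adjusted p = 0.00041). In all 5 the call held in each fit with a library or a replicate number left out.

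The promoter of BBX14 held an I-box, GATAAG, a sequence known from light-regulated promoters, searched on both strands. That motif was in 18.8% of promoters of genes that fell, 11.9% of those that rose and 12.8% of all. The BBX14 promoter is shown as that of the largest fall, from the same RefSeq annotation, with the I-box in capitals.
BBX14, chr1:25710990-25711239, minus strand: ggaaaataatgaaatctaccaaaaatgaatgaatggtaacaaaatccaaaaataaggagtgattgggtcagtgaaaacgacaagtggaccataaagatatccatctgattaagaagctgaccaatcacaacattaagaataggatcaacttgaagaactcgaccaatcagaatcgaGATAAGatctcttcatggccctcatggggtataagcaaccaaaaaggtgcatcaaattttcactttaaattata
Its match began 74 bases before the start.

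Expansins, which loosen cell walls, fell in 4 of 15 tested members and rose in none (median -1.21, against 6.44% of all genes lower). EXPA8 (AT2G40610) was at 41.5, 195 and 27.6 RPKM at 0 min and 6.44, 2.06 and 0.87 RPKM at 60 min, 96.5% lower (log2 difference -4.15 ± 0.97 (SE), adjusted p = 0.004), and EXPA1 (AT1G69530) at 157, 324 and 163 RPKM at 0 min and 84.4, 36.1 and 43.8 RPKM at 60 min, 74.5% lower. EXPB1 and EXPA11 were 90.7% and 67.1% lower, and each of these 2 calls was lost in 7 of 9 fits with a library or a replicate number left out. Also among the 10 largest falls, XTH6 (AT5G65730), a wall enzyme that cuts and rejoins xyloglucan, was at 227, 316 and 282 RPKM at 0 min and 18.2, 17.9 and 51.7 RPKM at 60 min (log2 difference -3.35 ± 0.77 (SE), adjusted p = 0.0035), and GASA6 (AT1G74670), a gibberellin-regulated peptide, at 50.6, 312 and 79.9 RPKM at 0 min and 11.5, 9.54 and 2.65 RPKM at 60 min (log2 difference -3.8 ± 0.91 (SE), adjusted p = 0.0049). Replicate 2 had the highest 0 min level for EXPA8, XTH6 and GASA6, and all 3 calls were lost when that number was left out at every time.

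Of 39 tested SAUR genes, small proteins that auxin induces and that promote cell expansion, 9 fell and 3 rose, with a median of -1.08, against 6.44% and 10.1% of all genes, and 16 fell with the replicate number as a block. AT4G38860 was at 116, 206 and 91.4 RPKM at 0 min and 61.5, 9.52 and 1.96 RPKM at 60 min (log2 difference -3.39 ± 0.79 (SE), adjusted p = 0.004), and replicate 1 was the highest of the 60 min libraries. AT1G72430 was at 114, 129 and 96.2 RPKM at 0 min and 45.2, 21.6 and 38.7 RPKM at 60 min, 68.9% lower. The members that moved the other way were AT1G75580, at 1.23, 1.33 and 4.14 RPKM at 0 min and 22, 18.3 and 32.6 RPKM at 60 min, and AT4G12410 and AT4G22620, with log2 differences of 2.03 and 2.24. Of 7 tested PIF factors and shade-growth genes 2 fell and none rose, where 6.44% of all genes fell. The median of that list was 0.585, and 4 of its members had positive log2 differences. PIF1 (AT2G20180), a factor that phytochrome removes in light, was at 7.42, 12.2 and 4.72 RPKM at 0 min and 1.98, 0.49 and 0.75 RPKM at 60 min, 86.8% lower, and PIF5 (AT3G59060) at 74.5, 74.9 and 47.9 RPKM at 0 min and 30.6, 27 and 16.5 RPKM at 60 min, 62.4% lower. PIF1 was low throughout, and its groups did not overlap.

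The clock genes of the morning fell in 4 of 14 tested members and rose in none (median -0.77, 6.44% of all genes lower), and 7 fell with the replicate number as a block. RVE1 (AT5G17300), a MYB-like factor that ties the clock to auxin, was at 35.1, 15.3 and 35.2 RPKM at 0 min and 1.51, 2.3 and 1.97 RPKM at 60 min, 93.2% lower (log2 difference -3.25 ± 0.50 (SE), adjusted p = 9.4e-05). LHY (AT1G01060), a core morning factor, was at 203, 54.8 and 299 RPKM at 0 min and 8.51, 19.8 and 94.8 RPKM at 60 min (log2 difference -2.5 ± 0.83 (SE), adjusted p = 0.039), with overlapping groups and a call lost in 7 of 9 fits with a library or a replicate number left out. LNK2 (AT3G54500) was at 429, 246 and 437 RPKM at 0 min and 123, 129 and 207 RPKM at 60 min (log2 difference -1.27 ± 0.38 (SE), adjusted p = 0.021), a call also lost in 7 of 9, and RVE2 was 84.9% lower. CCA1, the partner of LHY, named after its values were seen, was at 225, 128 and 289 RPKM at 0 min and 88.1, 99.1 and 134 RPKM at 60 min with an adjusted p of 0.25. Of 11 tested afternoon and evening genes, GI (AT1G22770) alone passed, at 6.57, 3.05 and 13.5 RPKM at 0 min and 30.9, 23.8 and 11.5 RPKM at 60 min with overlapping groups, and its call was lost in 5 of 9 such fits. With the replicate number as a block 2 of the 11 rose, and 10.1% of all genes rose without it. Time of day and light cannot be told apart in these libraries.

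None of the 24 genes of the Calvin-Benson cycle was called, all 24 had negative log2 differences, from -0.74 to -0.05, and their median was -0.27 against 0.04 for all genes. The median shift from the 0 min mean was 0.268, -0.256 and -0.053 in the 0 min libraries. In the 60 min libraries it was -0.106, -0.624 and -0.175. These ranges overlapped, so the shared sign does not show a fall in every library. PRK, the phosphoribulokinase, chosen after its values were seen, was at 1695, 1121 and 1479.6 RPKM at 0 min and 933, 723 and 886 RPKM at 60 min (adjusted p = 0.065), and its groups did not overlap. Of 20 tested antenna genes only LHCB7 (AT1G76570) was called, where 10.1% of all genes rose, and it rose, from 61.9, 32.8 and 73.4 to 85.4, 116 and 162 RPKM. The LHCB7 call was lost in 5 of 9 fits with a library or a replicate number left out, while the list as a whole had a median of -0.36. The median shift of the list was 0.239, 0.347 and -0.518 in the 0 min libraries. At 60 min it was -0.004, -0.63 and -0.361, so the 2 times overlapped. Reads of near-identical antenna and Rubisco small subunit genes may be divided between copies with error. Of 22 tested chlorophyll synthesis genes 2 fell, a share near the 6.44% of all genes, and none rose, or 1 with the replicate number as a block. CAO (AT1G44446), which makes chlorophyll b, was at 229, 271 and 113 RPKM at 0 min and 63, 51.4 and 47.8 RPKM at 60 min, 73.5% lower (log2 difference -1.81 ± 0.47 (SE), adjusted p = 0.0083), and CHLM (AT4G25080), a methyltransferase of the magnesium branch, was 54.4% lower. In both, all 60 min libraries were below all 0 min libraries, and the CHLM call was lost in 6 of 9 such fits.

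Carotenoid, photoprotection and photorespiration genes gave few calls. CCD4 (AT4G19170), which cleaves carotenoids, was at 183, 242 and 156 RPKM at 0 min and 73.8, 43.7 and 13.3 RPKM at 60 min, 77.5% lower, and BCH2 (AT5G52570), a beta-carotene hydroxylase of xanthophyll synthesis, was at 122, 48.2 and 118 RPKM at 0 min and 138, 346 and 908 RPKM at 60 min, 4.83-fold higher. These were the only called genes of the 14 tested in their list, 1 lower and 1 higher, near the 6.44% and 10.1% of all genes. The calls were lost in 4 and 5 of the 9 fits with a library or a replicate number left out. Of 9 tested photoprotection proteins LIL3:2 alone was called and fell, by 34.5% of its mean, where 6.44% of all genes fell. Of 16 tested photorespiration genes, against the same 6.44%, GOX1 and GOX2, near-identical glycolate oxidases, were 39.1% and 41% lower.

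Among genes of starch, BAM9 (AT5G18670), of the beta-amylase family, was at 176, 51.1 and 376 RPKM at 0 min and 7.91, 21.5 and 12.8 RPKM at 60 min, 93% lower (log2 difference -3.43 ± 0.61 (SE), adjusted p = 0.00037), and BAM5 (AT4G15210), a beta-amylase outside the chloroplast, at 7.05, 6.02 and 1.55 RPKM at 0 min and 124, 206 and 300.5 RPKM at 60 min, 43.1-fold higher (log2 difference 5.24 ± 0.76 (SE), adjusted p = 5.1e-05). Both sets of libraries were apart, and the 2 calls held in every fit with a library or a replicate number left out. AMY3, a chloroplast alpha-amylase, was 3.17-fold higher with overlapping groups. Of 18 tested starch degradation genes 2 rose and 1 fell, near the shares of all genes, and 5 rose with the replicate number as a block. Of 19 tested starch synthesis genes, as listed, GWD1, which phosphorylates starch, was the 1 called, 3.49-fold higher, where 10.1% of all genes rose. With the block 2 of that list were called. GPT2 (AT1G61800), the glucose-6-phosphate/phosphate translocator that the study set out from, was at 0.43, 0.07 and 1.08 RPKM at 0 min and 59, 16.9 and 51.3 RPKM at 60 min (log2 difference 4.7 ± 0.60 (SE), adjusted p = 1.6e-05). Here replicate 1 was the highest library, unlike in the jasmonate genes. Of the 18 tested transporters, STP13 rose and SUC1 fell beside it, with adjusted p-values of 0.043 and 0.038. The 2 rises and 1 fall of that list were near the 10.1% and 6.44% of all genes.

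Cytosolic glycolysis rose by small steps in 7 of 12 tested genes (median 0.68, 10.1% of all genes higher). GAPC1 (AT3G04120), a glyceraldehyde-3-phosphate dehydrogenase, was at 328, 314 and 388 RPKM at 0 min and 474, 671 and 539.9 RPKM at 60 min, 1.64-fold higher, and PGK3 (AT1G79550), a phosphoglycerate kinase, at 121, 128 and 128 RPKM at 0 min and 178, 188 and 204 RPKM at 60 min, 1.51-fold higher. Each of the 7 genes had groups that did not overlap, and the fold was between 1.43 and 2.01. Of 19 tested sucrose synthesis genes 2 rose and 2 fell (median 0.15), where 10.1% of all genes rose and 6.44% fell. With the replicate number as a block 3 rose and 3 fell. The cytosolic triosephosphate isomerase was at 293, 291 and 357 RPKM at 0 min and 538, 736 and 738 RPKM at 60 min, 2.14-fold higher, and UGP1, which makes UDP-glucose, was 1.76-fold higher. In the same sucrose synthesis list SPS4 (AT4G10120), a sucrose-phosphate synthase, was at 115, 66 and 105 RPKM at 0 min and 32.5, 20.1 and 32.3 RPKM at 60 min (log2 difference -1.71 ± 0.41 (SE), adjusted p = 0.0053), and FBA7 was 58.7% lower with overlapping groups. G6PDH1 (AT5G35790), the chloroplast glucose-6-phosphate dehydrogenase, was at 75, 132 and 41.7 RPKM at 0 min and 23.9, 21.7 and 19.2 RPKM at 60 min, 74% lower (adjusted p = 0.011), while G6PDH2 and G6PDH3 each had an adjusted p of 0.60. The triose phosphate translocator TPT, at 914, 921 and 596 RPKM at 0 min and 419, 509 and 432 RPKM at 60 min, had an adjusted p of 0.067 and of 0.019 with the replicate number as a block, by which it was lower, and its groups did not overlap. XPT, GAPN, SPP2, TPI and FBA6 were not called, with adjusted p-values from 0.19 to 0.71, and the study's reference genes ACT2 and IDI2 had log2 differences of -0.47 and 0.29 (adjusted p = 0.15 and 0.12).

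Of 11 tested nitrogen assimilation genes 2 fell and 1 rose (median -0.04), where 6.44% of all genes fell, and 2 rose with the replicate number as a block. NIA2 (AT1G37130), the main nitrate reductase, was at 467, 335 and 436 RPKM at 0 min and 125, 109.6 and 78.7 RPKM at 60 min, 74.7% lower (log2 difference -1.98 ± 0.47 (SE), adjusted p = 0.0043), and the cytosolic glutamine synthetase GLN1;2 was 47.8% lower, while GDH2, a glutamate dehydrogenase, was 6.67-fold higher. The call on NIA2 was lost without replicate 3 at every time. Of 17 tested genes known to rise in starvation 6 fell and 1 rose (median -0.47, 6.44% of all genes lower). AKINBETA1 (AT5G21170), a subunit of the energy-sensing kinase SnRK1, was at 2.79, 10.4 and 2 RPKM at 0 min and 0.69, 0.53 and 0.75 RPKM at 60 min, DIN10 (AT5G20250), a raffinose synthase family member, at 2.74, 10.9 and 7.14 RPKM at 0 min and 0.58, 1.38 and 0.6 RPKM at 60 min, and AT3G15450 at 6.74, 22.2 and 1.21 RPKM at 0 min and 0.26, 0.58 and 0.22 RPKM at 60 min. Replicate 2 had the highest 0 min level for all 3. DIN9 (AT1G67070), a mannose-6-phosphate isomerase, moved the other way, 3.88-fold higher.

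The 5 largest losses of mean RPKM among called genes were in AT2G45180, of the lipid transfer protein family, GOX1, AT1G55960 and CP5, the last 2 with a lipid-binding domain, and AT4G13495, annotated as an RNA. AT2G45180 was at 999.8, 2548 and 1649.6 RPKM at 0 min and 446, 555 and 308 RPKM at 60 min, 74.8% lower. AT1G55960 was at 658, 410.4 and 683 RPKM at 0 min and 73.9, 48.6 and 97.7 RPKM at 60 min, 87.4% lower, and CP5 at 577, 828 and 424 RPKM at 0 min and 216, 229.9 and 171 RPKM at 60 min, 66.3% lower. None of these groups overlapped.

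Levels at the other times are set beside the comparison without a test, since they share its 0 min libraries. JAZ1 had means of 114 RPKM at 15 min, 511 at 30 min, 604 ± 436 (SD) at 60 min, 217 at 120 min and 66.7 at 240 min. OPR3 had 132, 938, 1168 ± 793, 508 and 90.6 RPKM at the same times. For both the mean was highest at 60 min, with an SD that reached the 30 min mean. VSP2, LOX2 and COR15A had their highest mean at 120 min, 1635, 3847 and 2029 RPKM. WRKY40 had means of 60.7 RPKM at 15 min, 108 at 30 min and 82.9 ± 78.6 at 60 min. Among the falls, BBX14 was at 36.2 RPKM at 15 min, 6.14 at 30 min, 1.84 ± 0.74 at 60 min and 19.1 at 240 min, and RVE1 at 10.4, 6.28, 1.93 ± 0.4 and 1.42.

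**Figure D3:**
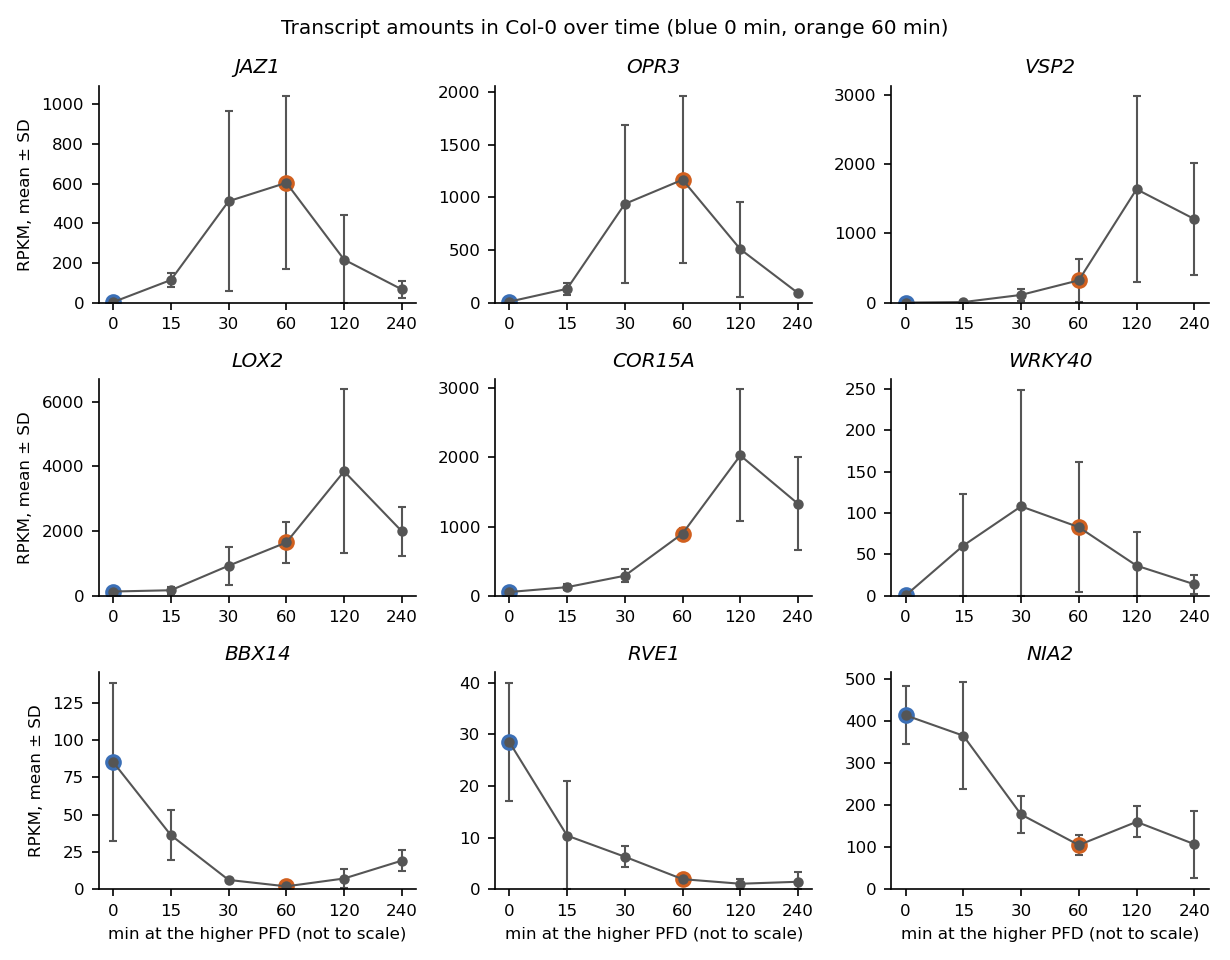
Transcript amounts of 9 genes in Col-0 at the 6 times, in RPKM, as the mean ± SD of 3 libraries, with the lower bar ending at 0 and the times spaced evenly. JAZ1 and OPR3 had their highest mean at 60 min (604 and 1168 RPKM), and BBX14 its lowest (1.84 RPKM).

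WS plants, sampled and lit in the same way, gave a comparison of 60 with 0 min that shares no library with that of Col-0. Of the 13817 genes 2317 were higher (16.8%) and 1386 lower (10.03%) in WS. The rises called in both ecotypes numbered 1019, which is 73.3% of the Col-0 rises and 44% of the WS rises, and the falls called in both 623, 70% of those in Col-0 and 44.9% of those in WS. Opposite calls were made for 3 genes. The log2 difference had the same sign in WS for 1351 of the 1391 Col-0 rises and 857 of the 890 falls. JAZ1 in WS was at 1.03 to 4.24 RPKM at 0 min and 335 to 1050.4 RPKM at 60 min, OPR3 at 7.73 to 13.8 RPKM at 0 min and 881 to 1489 RPKM at 60 min and BBX14 at 64.3 to 76.6 RPKM at 0 min and 0.87 to 1.45 RPKM at 60 min. In WS 11 of the jasmonate synthesis genes and 15 of the JAZ and turnover genes rose.

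The difference between the ecotypes in the response passed the test for 32 genes (0.232%), with the Col-0 change above that of WS for 9 and below it for 23. Apart from genes that were near 0 in Col-0 throughout, PYL1 (AT5G46790), an abscisic acid receptor, was at 18.8, 16.1 and 15.5 RPKM at 0 min and 11.1, 9.26 and 13.8 RPKM at 60 min in Col-0 and at 9.46 to 10 RPKM at 0 min and 26.1 to 37.4 RPKM at 60 min in WS. Its ranges did not overlap in either ecotype, with a fall by values in Col-0 that did not pass the test (adjusted p = 0.076) and a rise in WS. None of the 10 largest rises or 10 largest falls, and no gene of the jasmonate lists, was among the 32.

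**Figure D4:**
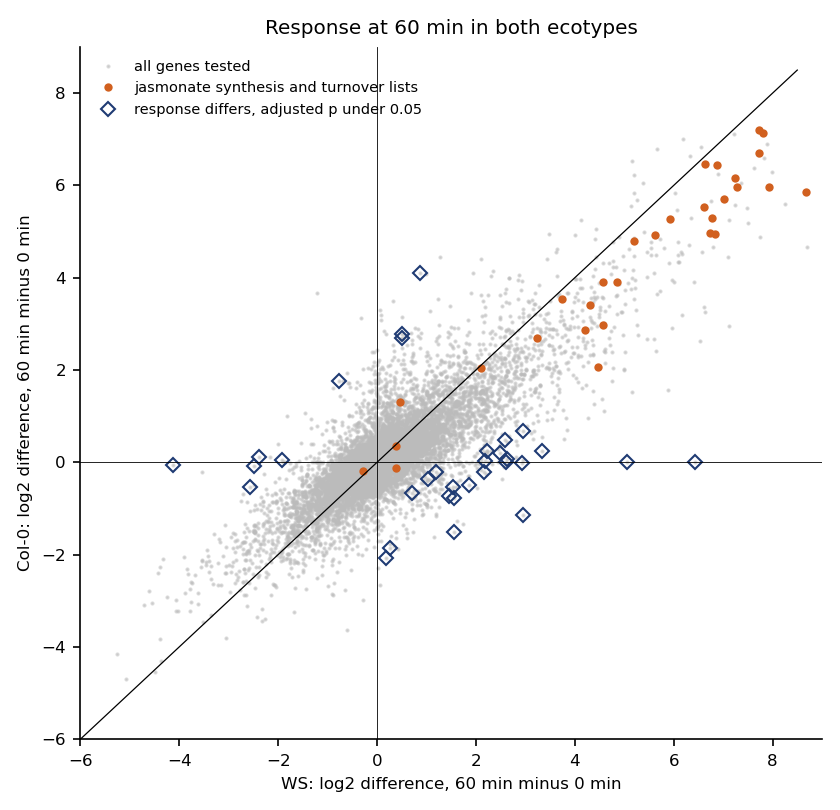
Log2 difference between 60 and 0 min in Col-0 (vertical axis) against that in WS (horizontal axis) for every gene tested, with the jasmonate lists in orange and the 32 genes whose response differed between the ecotypes as open diamonds, which lie off the diagonal. Jasmonate synthesis had a median of 4.23 in Col-0 against 5.10 in WS, and the JAZ and turnover list 5.12 against 6.81.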

How the data were processed

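RNA of whole leaves had been sequenced as single-end reads from stranded poly(A) libraries. Per the submitters' processing notes and the study's methods, the authors used Trimmomatic 0.32 for trimming, FastQC for quality, STAR 2.3.0e for alignment (to TAIR10) and featureCounts for counting per gene. They deposited RPKM values per gene and library. Which strand setting was used in counting, and which annotation release, is not given in the sources used here. Labels give times as hours, or 20 for 30, where the study's methods give minutes, and the minutes in the titles were used. No sample column was left unused (0 columns).

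From these values log2(RPKM + 1) was fitted in limma 3.58.1 (R 4.3.3) over 12 groups and 36 libraries with an intensity trend, restricted to 13817 genes that exceed 7 RPKM in 1 library or more, and p-values were adjusted by Benjamini-Hochberg at 0.05. Fold changes are of mean RPKM, and differences on the log2(RPKM + 1) scale understate changes of low genes. Where a library, or a replicate number at every time, was left out, the fit was repeated, in 9 such fits. For voom, read numbers were rebuilt from the steps of RPKM values. Depth is the number of reads so rebuilt, and it limits only counting error. The code was tested on simulated data. Per the methods, 3 plants per ecotype were sampled over time, but the labels do not say that a replicate number stands for a plant. Same-numbered libraries at 0 and 60 min deviated together with correlations of 0.05, 0.02 and 0.21. A fit with the number as a block is given as an alternative.

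Named genes were those the study names, the 10 largest rises and falls with groups that did not overlap, up to 4 called members per list with the smallest adjusted p and members called against the rest, the 5 largest gains and losses of mean RPKM, and the 5 smallest adjusted p-values for the ecotype difference. The comparison, its genes and its lists were chosen with earlier results of these data known. Symbols and promoters are from RefSeq, in which 37051 of 37336 genes matched.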

Additional observations from a re-analysis of the deposited data

Results flagged for a closer look

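The 32 genes whose response at 60 min differed between the ecotypes in limma's interaction test are given here with the difference in log2 response, Col-0 minus WS. LCR66, a small cysteine-rich peptide, was listed at 0 in all 6 Col-0 libraries and in WS at 0 min, and was at 43.0 to 153 RPKM in WS at 60 min, a difference of -6.43. AT2G45230, listed at 0 in the same 9 libraries, was at 19.8 to 49.1 RPKM in WS at 60 min, a difference of -5.06, and AT4G11310, a papain-type protease, likewise at 0, reached 3.87 to 6.39 RPKM, a difference of -2.61.

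Further genes were under 1 RPKM in all 6 Col-0 libraries. AT3G44790, a TRAF-like protein, fell in WS from between 37.7 and 88.7 RPKM to between 1.73 and 2.24 RPKM, a difference of 4.07, and its neighbours AT3G44800 and AT3G44805 differed by 2.41 and 2.03. The oxygenase AT1G52810 differed by 2.50 and the RNA AT5G04815 by 1.97. The RNA AT1G06963, the potassium channel KCO2, the dehydrogenase AT5G37980 and the transporter AT1G72125 differed by -2.94, -2.57, -2.16 and -2.12. Whether the sequence of these genes differs between WS and the Col-0 reference was not tested.

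AT5G36925 was at 0 to 0.04 RPKM in WS at 0 min and 0.31 to 1.81 RPKM at 60 min, and AT5G53048 at 0.02 to 0.31 and 0.48 to 0.76 RPKM. These genes and AT5G39790, a protein targeting to starch family member, rose in Col-0 with differences of 3.24, 2.27 and 2.17, and the glycosyltransferase GATL2 rose in Col-0 and had a difference of 2.54. PATL2, a membrane traffic protein, fell in Col-0 and rose in WS, a difference of -3.07. AT1G10020, AT2G39870 and AT1G57680 fell in Col-0 with differences of -2.12, -2.25 and -1.37. The MYB-like factor AT5G56840, the kinase AT5G63940, CLT1 and BPC2 rose in WS with differences of -4.08, -3.1, -2.37 and -2.34. AT3G19680, AT5G58900, the ascorbate oxidase AT5G21105 and AT2G42040 had differences of -2.32, -2.28, -2.28 and -2.19. PYL1, AT4G17680, ML4 and the glutamate receptor GLR3.4 had differences of -2.08, -1.97, -1.41 and -1.39.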

How the results depend on the processing

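Against 1391 rises and 890 falls, the 6 libraries fitted alone gave 490 and 391, the 18 Col-0 libraries 872 rises, and voom 801 rises. Fits without a library or a replicate number gave 320 to 1846 rises and 282 to 1020 falls. The other settings stayed within 1.5 times of both counts, among them no filter (1297 and 1068), TPM scaling (1113 and 994) and median of ratios scaling (1256 and 1047). Members of the gene lists, 91 higher and 28 lower, were 50 and 10 with the 6 libraries and 59 higher with voom, and 42 to 103 and 7 to 24 without a library or a replicate number. The 32 ecotype differences became 17 with a pseudocount of 0.1 RPKM, 58 with no filter, 51 with a filter of 1 RPKM in 3 libraries, 5 with 7 RPKM in the 6 libraries, 4 with voom and 14 to 31 without a library or a replicate number. The step from 30 to 60 min, with 0 genes, had 7 with no filter and 0 to 4 without a library or a replicate number. No single count or gene changed its direction, but voom turned the balance of rises and falls, with 801 against 1022. The cause of these shifts was not tested. The ecotype difference could not be fitted with the 6 libraries or with Col-0 alone.

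With the replicate number as a block there were 1671 rises and 1111 falls, 18 rises and 3 falls of the main fit were not called, the ecotype difference had 42 genes, the step from 30 to 60 min 1, and the list members 106 higher and 33 lower. Of 156 called genes of the lists and the naming rule, all stayed called under the block. Under every one of 21 alternatives 46 stayed called, and 57 in every fit without a library or a replicate number. Lists whose counts the block moved are given with their results or here. With the block, 9 genes of cytosolic glycolysis rose, 9 of the 26S proteasome and 10 of the ERF factors. Of the genes annotated as ERF or DREB 11 rose, and 5 expansins fell.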

Other observations

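Genes of protein turnover and synthesis, which the comparisons above leave out, moved little. Of 41 tested subunits of the 26S proteasome, which degrades the JAZ proteins among others, 6 rose and none fell, with a median log2 difference of 0.28, where 10.1% of all genes rose. The activator PA200 had a 2.36-fold and PBC2 a 2.19-fold higher mean, and PBG1 a 1.37-fold higher mean. The median shift of the list was 0.22 in replicate 1, 0.46 in replicate 2 and 0.14 in replicate 3. Of 280 tested genes annotated as cytosolic ribosomal proteins, AT4G26060 alone was called, 5.73-fold higher, and the median was 0.10. None of 46 tested aminoacyl-tRNA synthetase genes and none of 15 genes of nucleolar ribosome assembly passed the test in limma, and 1 of each rose with the replicate number as a block. That block called 2 ribosomal protein genes higher and 1 lower.

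Of the markers of other leaf cell types, MYB60, a factor of guard cells, was lower, at 10.5, 8.51 and 8.65 RPKM at 0 min and 7.67, 3.41 and 2.89 RPKM at 60 min, and its call was lost in 7 of the 9 fits without a library or a replicate number. None of the 5 tested phloem, 3 epidermis and trichome and 2 xylem markers was called. MYC2 (AT1G32640), the main activator that the JAZ proteins hold down, was listed at 0 in all 36 libraries, so its level was not measured here.

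Other motifs differed in their share between the promoters of genes that rose and of genes that fell. The W-box (TTGACC, read on both strands) was in 15.2% of the former, 7.75% of the latter and 11.9% of all, and the evening element (AAATATCT) in 7.33%, 4.04% and 5.25%. Of the promoters in the jasmonate lists, 2 of the 14 synthesis genes and 4 of the 16 JAZ and turnover genes held the G-box in this window.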
